A study of Rattus norvegicus with 6 samples.

Results

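The adrenergic receptors described here were the 7 genes Adra1a, Adra1b, Adra1d, Adra2a, Adra2b, Adra2c and Adrb1, chosen by gene symbol from a table of 32662 features. They make up the alpha-1 and alpha-2 classes and 1 member of the beta class. Each symbol matched 1 feature with a locus of its own in rn6 that overlapped no other feature, and all 7 passed the filter on low values. Transcript levels came from 6 poly(A)-selected RNA-seq libraries of the amygdala of male Sprague Dawley rats, an outbred laboratory strain, at postnatal day 38. B-CTRL, with 3 libraries, is labelled as behavioural testing, which was a test of social play, and NB-CTRL, with 3 libraries, as non-behavioral. The labels name no allele or drug for either group, do not say what CTRL stands for, and leave unstated whether the libraries came from different animals. The p-values therefore reflect only the variation among these 6 libraries, which may be technical.

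Adrenergic receptors are membrane receptors for noradrenaline and adrenaline that act through G proteins. Alpha-1 receptors couple mainly to Gq and raise calcium through phospholipase C, alpha-2 receptors couple to Gi and lower cyclic AMP, and beta receptors couple to Gs and raise cyclic AMP. Noradrenaline reaches the amygdala along axons from brainstem cell groups such as the locus coeruleus, and it is known there for its part in arousal and in memory of emotional events.

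Values were FPKM, fragments scaled by transcript length and library size. Levels were therefore set side by side between genes, which rests on the annotated transcript lengths being right. Those lengths were not checked, and the annotation release is not stated. The alpha-2C receptor gene Adra2c was the most abundant of the 7 transcripts in 6 of 6 libraries. The alpha-1 genes Adra1a and Adra1b had lower values in every B-CTRL than in every NB-CTRL library, and the third alpha-1 gene, Adra1d, had a single high value in B-CTRL 1. In limma, with Benjamini-Hochberg adjustment over 14043 tested features, 0 of the 7 receptors passed an adjusted p of 0.05, as did 0% of all features. At an unadjusted limma p under 0.05 stood 2 of the 7, beside 12.3% of all features in either direction (6.07% lower and 6.25% higher in B-CTRL), and both of the 2 were lower. Of the 7 receptors 5 had a lower mean in B-CTRL on the log2 scale, beside 50.3% of all features, and their median log2 difference was -0.19 against -0.0024 over all features.

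The libraries differed in markers of neighbouring tissue. Choroid plexus markers such as Ttr summed to 7231 FPKM in B-CTRL 1 and to at most 28.2 FPKM in the other libraries. Hypothalamic peptide and neuron markers summed to 63.9 FPKM in NB-CTRL 2 and to at most 15.1 FPKM elsewhere. Markers of striatal neurons summed to between 1743 and 5813 FPKM, and those of pallial excitatory neurons, which the basolateral amygdala also holds, to between 8.77 and 411 FPKM. Of 7 markers of the amygdala's own nuclei, all were found in the table, and their sums lay between 52.9 and 70.7 FPKM. FPKM totals per library were higher in B-CTRL (579141 to 641725) than in NB-CTRL (522422 to 536937). Absolute depth is unknown. Relative depth, read roughly off the smallest steps among low values, was 1.09, 0.717 and 1.39 times that of NB-CTRL 1 in B-CTRL 1, 2 and 3 and 1.59 and 1.62 times in NB-CTRL 2 and 3. In such tissue samples fewer cells of a type and less RNA per cell cannot be told apart.

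**Figure D1:**
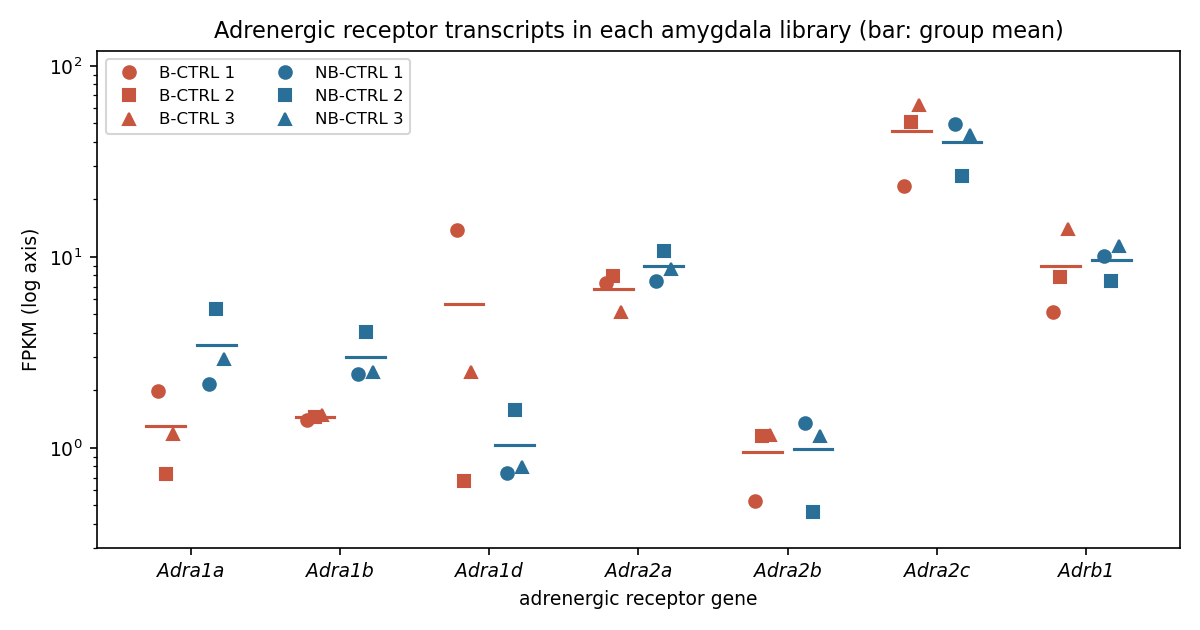
FPKM on a log axis of the 7 adrenergic receptor genes in each library (points; colour gives the group, shape the replicate number), with the group mean as a bar. Adra2c lies highest in each library, Adra1a and Adra1b do not overlap between the groups, and the B-CTRL mean of Adra1d rests on 1 library at 13.8 FPKM.

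Of the alpha-1 genes, Adra1a encodes the alpha-1A receptor, which couples to Gq. Adra1a lies on chromosome 15, 43298793 to 43392451 (ENSRNOG00000009522) in rn6, as the table gives it. It stood at 1.98, 0.731 and 1.18 FPKM in B-CTRL 1, 2 and 3 and at 2.16, 5.32 and 2.92 FPKM in NB-CTRL 1, 2 and 3. The groups did not overlap, but B-CTRL 1 and NB-CTRL 1 lay close to each other, and NB-CTRL 2 stood above the rest. The means were 1.30 ± 0.632 FPKM against 3.47 ± 1.65 FPKM (SD, n = 3 each), a 2.67-fold higher mean in NB-CTRL. On the log2(FPKM + 0.5) scale the difference, B-CTRL minus NB-CTRL, was -1.12 ± 0.37 (SE), with a 95% interval from -2.005 to -0.24 and a limma adjusted p of 0.400. Without NB-CTRL 2 the difference was -0.80, and without B-CTRL 1 it was -1.38.

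The alpha-1B receptor gene Adra1b, also coupled to Gq, lies on chromosome 10, 29392761 to 29450644 (ENSRNOG00000060087). Its levels were 1.40, 1.45 and 1.49 FPKM in B-CTRL 1, 2 and 3 and 2.44, 4.06 and 2.49 FPKM in NB-CTRL 1, 2 and 3. The B-CTRL libraries were nearly alike, each below each NB-CTRL library, and NB-CTRL 2 was again highest. The group means were 1.45 ± 0.0488 and 2.99 ± 0.923 FPKM (SD, n = 3 each), a 2.07-fold higher mean in NB-CTRL. The log2 difference was -0.81 ± 0.23 (SE), with a 95% interval from -1.35 to -0.28 and a limma adjusted p of 0.400. By its unadjusted p of 0.0090 in limma, Adra1b stood among the lowest 1.32% of tested features. Groups that did not overlap, with B-CTRL lower, were found in 12% of all tested features, and in 2 of the 7 receptors. The marker sums of hypothalamic neurons (63.9 FPKM, at most 15.1 elsewhere), thalamic neurons (38.3, at most 28.9) and amygdala nuclei (70.7, at most 59.6) were also highest in NB-CTRL 2. Single markers of these lists did not all go that way. Of the thalamic list Slc17a6 (21.1 FPKM), Tcf7l2 and Shox2 were highest there, Lhx9 and Rgs16 were not, and Tnnt1 was lowest (4.85 FPKM). Of the amygdala list Pnoc and Crh were highest there, and Foxp2, Tshz1, Prkcd, Rspo2 and Esr1 were not. Pomc, Hcrt and Trh of the hypothalamic list were not highest there either. The part of these markers in the receptor values was not tested. With both NB-CTRL 2 and B-CTRL 1 left out, a setting chosen after seeing the data, the difference was -1.07 for Adra1a and -0.59 for Adra1b.

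The third alpha-1 gene, Adra1d, encodes the alpha-1D receptor and lies on chromosome 3, 124129557 to 124145566 (ENSRNOG00000021256). It stood at 13.8, 0.668 and 2.49 FPKM in B-CTRL 1, 2 and 3 and at 0.741, 1.57 and 0.792 FPKM in NB-CTRL 1, 2 and 3. B-CTRL 1 was far above the rest, B-CTRL 3 came next, and B-CTRL 2 was the lowest of all, so the groups overlapped. The spread over the libraries was 20.6-fold from lowest to highest, the widest of the 7 genes. Means of 5.64 ± 7.10 and 1.04 ± 0.466 FPKM (SD, n = 3 each) gave a log2 difference of 1.30 ± 0.84 (SE), with a 95% interval from -0.68 to 3.28 and a limma adjusted p of 0.470. Without B-CTRL 1 the difference was 0.32 and without B-CTRL 2 it was 2.13. Pallial excitatory markers, among them Slc17a7, the vesicular glutamate transporter gene of cortical-type neurons, were also highest in B-CTRL 1 and lowest in B-CTRL 2. Slc17a7 was high in NB-CTRL 3 too (263 FPKM, against 350 FPKM in B-CTRL 1), where Adra1d stood at 0.792 FPKM. The marker Fezf2, a transcription factor gene of deep-layer cortical neurons, ran through the 6 libraries in the same order as Adra1d, from 6.29 FPKM in B-CTRL 1 down to 0.783 FPKM in B-CTRL 2. It was the only such marker among 94, and 11 other tested features (0.0783%) had that order. The amygdala markers had no common order, and their sum was highest in NB-CTRL 2. Rspo2 of that list was, like Adra1d, highest in B-CTRL 1 (19.3 FPKM), next in B-CTRL 3 (2.16) and lowest in B-CTRL 2 (0.299). Foxp2, Tshz1 and Prkcd of the same list were lowest in B-CTRL 1. The ependymal marker sum was highest in B-CTRL 1 as well (15.6 FPKM, at most 1.46 FPKM elsewhere). The part of these markers, or of the choroid plexus transcripts in B-CTRL 1, in the value of Adra1d was not tested.

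The promoters of 6 of the 7 receptors, all but Adra1a, were found in RefSeq's table for assembly GRCr8, which gives 250 bases before and 50 after the annotated start. Those of the alpha-1 genes Adra1b (chr10:28814298-28814597, minus strand) and Adra1d (chr3:139262282-139262581, minus strand) are shown because the log2 differences of these genes of 1 class had opposite signs. Capitals mark matches, on either strand, to the GC box GGGCGG, the CCAAT box CCAAT, the TATA box TATAAA and TGACG, which is the first 5 letters of the cAMP response element TGACGTCA and so overlaps it.
Adra1b: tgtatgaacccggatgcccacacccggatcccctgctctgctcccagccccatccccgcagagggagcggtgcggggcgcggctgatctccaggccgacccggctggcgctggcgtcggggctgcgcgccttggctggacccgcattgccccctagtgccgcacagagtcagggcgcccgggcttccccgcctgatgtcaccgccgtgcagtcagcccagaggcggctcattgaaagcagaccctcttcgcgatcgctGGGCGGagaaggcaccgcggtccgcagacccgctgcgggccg
Adra1d: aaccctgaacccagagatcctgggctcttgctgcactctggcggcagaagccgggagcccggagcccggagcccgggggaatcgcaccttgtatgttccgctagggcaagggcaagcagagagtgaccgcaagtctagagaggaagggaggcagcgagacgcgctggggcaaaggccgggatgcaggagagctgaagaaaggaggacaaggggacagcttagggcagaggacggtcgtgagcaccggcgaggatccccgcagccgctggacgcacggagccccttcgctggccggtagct
The Adra1b promoter held 1 GC box and the Adra1d promoter held none of these letters, and 33.1% of 33469 promoters of that length held a GC box. Their GC contents were 72.0% and 65.7%, against a median of 51.7% over all promoters. The table gave 32 and 22 CpG dinucleotides in these promoters, against a median of 7.

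Of the alpha-2 genes, Adra2c encodes the alpha-2C receptor, which couples to Gi and is known for its high level in striatal projection neurons. Adra2c lies on chromosome 14, 80730306 to 80732010 (ENSRNOG00000009299). It stood at 23.5, 50.6 and 62.7 FPKM in B-CTRL 1, 2 and 3 and at 49.5, 26.7 and 43.6 FPKM in NB-CTRL 1, 2 and 3. Each group held 1 low library, B-CTRL 1 and NB-CTRL 2, and the groups overlapped widely. The means were 45.6 ± 20.1 and 39.9 ± 11.9 FPKM (SD, n = 3 each), and the log2 difference was 0.12 ± 0.39 (SE), with a 95% interval from -0.81 to 1.06 and a limma adjusted p of 0.889. The interval covers ratios of B-CTRL to NB-CTRL from 0.571 to 2.08, so a 2-fold higher level in B-CTRL lies within it. Its sign turned when B-CTRL 2, B-CTRL 3 or NB-CTRL 2 was left out (-0.16 at the lowest) and under library weights (-0.22).

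The alpha-2A receptor gene Adra2a encodes the receptor that on noradrenergic axons curbs further release. It lies on chromosome 1, 274766282 to 274769081 (ENSRNOG00000047545). Adra2a stood at 7.30, 7.97 and 5.18 FPKM in B-CTRL 1, 2 and 3 and at 7.44, 10.7 and 8.68 FPKM in NB-CTRL 1, 2 and 3. B-CTRL 3 was lowest and NB-CTRL 2 highest, and B-CTRL 2 lay above NB-CTRL 1. The spread from lowest to highest was 2.07-fold, the narrowest of the 7 genes. The means were 6.82 ± 1.46 and 8.95 ± 1.66 FPKM (SD, n = 3 each), with a log2 difference of -0.38 ± 0.21 (SE), a 95% interval from -0.88 to 0.13 and a limma adjusted p of 0.433.

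The alpha-2B receptor gene Adra2b, the scarcest of the 7 by mean, lies on chromosome 3, 119805940 to 119809987 (ENSRNOG00000013887). It stood at 0.526, 1.16 and 1.17 FPKM in B-CTRL 1, 2 and 3 and at 1.35, 0.464 and 1.15 FPKM in NB-CTRL 1, 2 and 3. B-CTRL 1 and NB-CTRL 2 were low and the other 4 libraries were close together. The log2 difference was -0.020 ± 0.34 (SE), with a 95% interval from -0.83 to 0.79 and a limma adjusted p of 0.980. Its sign turned under median scaling and quantile normalization, and when each of 3 libraries was left out.

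The beta class was represented by Adrb1, the beta-1 receptor gene, whose product couples to Gs. Adrb1 lies on chromosome 1, 277537584 to 277538985 (ENSRNOG00000017002). It stood at 5.15, 7.83 and 14.1 FPKM in B-CTRL 1, 2 and 3 and at 10.2, 7.52 and 11.3 FPKM in NB-CTRL 1, 2 and 3. B-CTRL held both the lowest and the highest library, so the NB-CTRL values lay inside the range of B-CTRL. The means were 9.01 ± 4.57 and 9.67 ± 1.96 FPKM (SD, n = 3 each), with a log2 difference of -0.19 ± 0.35 (SE), a 95% interval from -1.01 to 0.64 and a limma adjusted p of 0.805. Without B-CTRL 1 the difference was 0.13 and without B-CTRL 3 it was -0.55. The beta-3 receptor gene Adrb3 stood at no more than 0.0574 FPKM and was not tested.

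**Figure D2:**
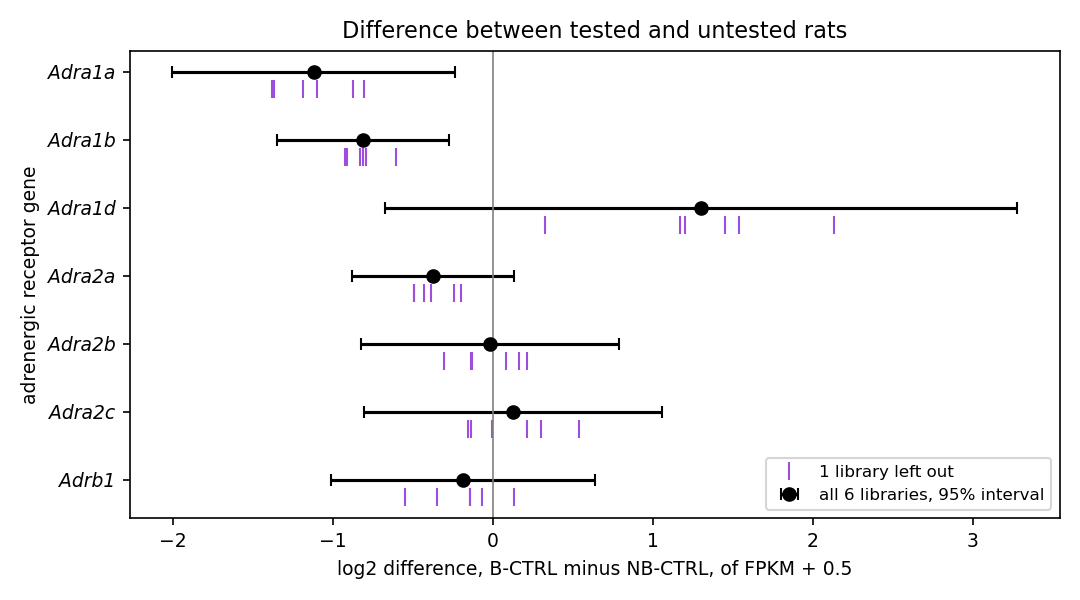
Log2 difference of FPKM + 0.5, B-CTRL minus NB-CTRL, for each receptor with its 95% interval from limma (black) and the value when each of the 6 libraries was left out (purple ticks). The intervals of Adra1a and Adra1b lie below 0 and those of the other 5 genes span it.

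The order of the receptor levels was set by the mean FPKM over the 6 libraries. Adra2c (42.8 ± 15.1 FPKM, SD, n = 6) came first, then Adrb1 (9.34 ± 3.17), Adra2a (7.88 ± 1.82), Adra1d (3.34 ± 5.16), Adra1a (2.38 ± 1.63), Adra1b (2.22 ± 1.03) and Adra2b (0.971 ± 0.377). Neighbours in this order were compared within each library on the log2(FPKM + 0.5) scale with a 2-sided exact sign-flip permutation test, in which 6 libraries allow no p below 0.0313. Adra2c lay above Adrb1 in 6 of 6 libraries, 4.34-fold on this scale, with a log2 difference of 2.12 ± 0.30 (SD, exact p = 0.0313, adjusted p over 6 neighbouring pairs 0.0938). Adra1b lay above Adra2b in 6 of 6 libraries as well, by 0.86 ± 0.74 log2 (SD, exact p = 0.0313, adjusted 0.0938). Adra2a lay above Adra1d in 5 of 6, the exception being B-CTRL 1 (log2 difference 1.81 ± 1.501, SD, exact p = 0.0625, adjusted 0.125). No pair passed after adjustment over the 6, and the order was taken from the same values. Adrb1 and Adra2a, Adra1d and Adra1a, and Adra1a and Adra1b each changed places between libraries and did not differ beyond their spread (adjusted exact p = 0.938 for each). The place of Adra1d by mean rested on B-CTRL 1, since its median of 1.18 FPKM lay below those of Adra1a (2.07) and Adra1b (1.96). On the log2 scale Adra1d minus Adra1a was -0.12 ± 1.57 (SD), with Adra1d higher in 2 of 6 libraries, and Adra1a minus Adra1b was -0.019 ± 0.41, so both had the sign opposite to the order by mean. Among the features above 0 in a library, Adra2c stood at percentiles of FPKM from 73.5 to 89.3 and Adra2b from 18.0 to 26.8.

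The alpha-2 class held most of the receptor transcripts. Its share of the summed FPKM of the 7 genes was 58.4%, 84.8% and 78.2% in B-CTRL 1, 2 and 3, compared with 79.0%, 67.2% and 75.3% in NB-CTRL 1, 2 and 3. Adra2c alone made up from 43.8% (B-CTRL 1) to 71.9% (B-CTRL 2). The alpha-1 share was 32.0%, 4.05% and 5.85% in B-CTRL 1, 2 and 3, against 7.23%, 19.4% and 8.73% in NB-CTRL 1, 2 and 3. It was thus highest in B-CTRL 1, through Adra1d with 80.3% of the alpha-1 sum, and next in NB-CTRL 2, through Adra1a with 48.6%. Within the alpha-1 class Adra1d made up 80.3%, 23.4% and 48.1% in B-CTRL 1, 2 and 3, against 13.9%, 14.4% and 12.8% in NB-CTRL 1, 2 and 3. The B-CTRL shares of Adra1d all lay above the NB-CTRL shares, also in B-CTRL 2, where Adra1d itself was lowest. A share of this kind also rises when Adra1a and Adra1b are low. Both were lower in every B-CTRL library, so the shares are not a separate result on Adra1d. Adrb1 held between 9.60% and 16.0%. The sum over the 7 genes ranged from 53.7 FPKM in B-CTRL 1 to 88.3 FPKM in B-CTRL 3.

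**Figure D3:**
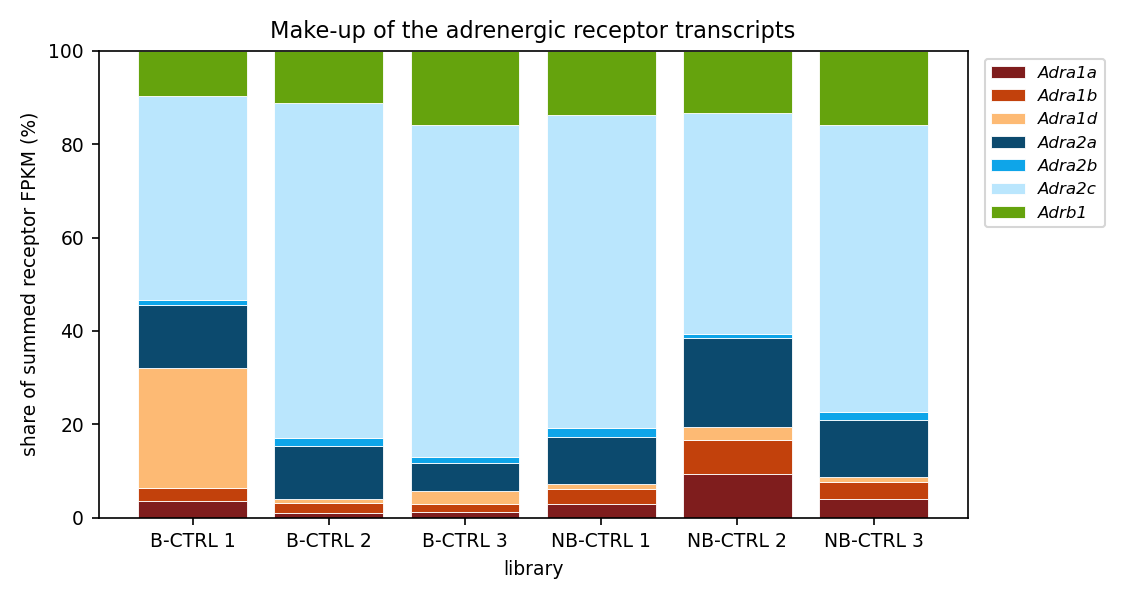
Share of the summed FPKM of the 7 receptor genes held by each gene (stacked bars, percent) in each library. Adra2c takes the largest share in each library, and the alpha-1 genes together take the most in B-CTRL 1 (32.0%) and NB-CTRL 2 (19.4%).

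Across the 6 libraries, whatever their group, Adra2c, Adrb1 and Adra2b were alike in being lowest in B-CTRL 1 and NB-CTRL 2. The same libraries were the lowest for 8 of 8 striatal markers, and for 8.03% of all tested features. The order of Adra2c over the libraries (B-CTRL 3, B-CTRL 2, NB-CTRL 1, NB-CTRL 3, NB-CTRL 2, B-CTRL 1) was also that of Drd2, the dopamine D2 receptor gene, Adora2a, an adenosine receptor gene, and Trh, the thyrotropin-releasing hormone gene. These were 3 of 94 markers, and 85 other tested features (0.605%) shared the order. Drd2 stood at 42.3, 120 and 163 FPKM in B-CTRL 1, 2 and 3 and at 118, 45.4 and 95.7 FPKM in NB-CTRL 1, 2 and 3. With the mean log2 level of the striatal markers as a covariate, chosen after seeing the data, the difference of Adra2c between the groups was -0.14 ± 0.11 (SE) in place of 0.12 ± 0.39. The same fit gave -0.39 ± 0.21 for Adrb1 and 1.75 ± 0.61 for Adra1d, and -0.92 ± 0.26 and -0.76 ± 0.23 for Adra1a and Adra1b, and again 0 features passed. Of the 21 pairs of receptors, Adra2b with Adra2c (root mean square difference 0.22 log2 between profiles centred on their means) and Adra2c with Adrb1 (0.27 log2) were closest. Adra1d was farther from each of the other 6 (1.37 to 1.62 log2) than they were from one another.

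**Figure D4:**
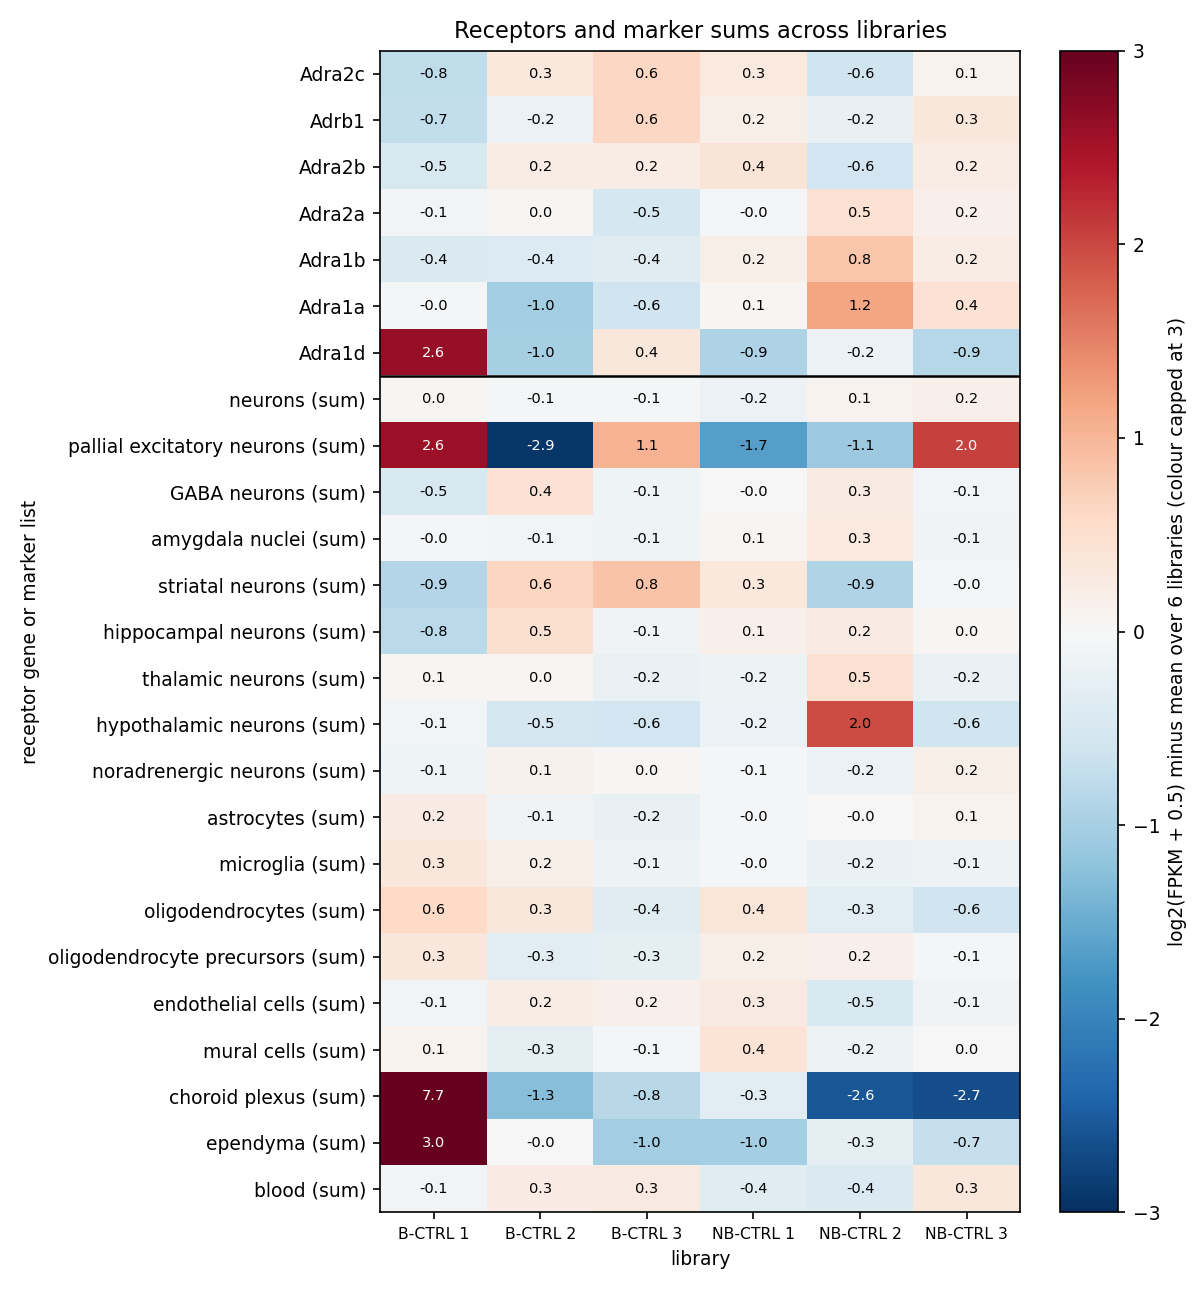
Level of each receptor gene (above the line) and summed level of each of 18 marker lists (below) in each library, as log2(FPKM + 0.5) minus the mean over the 6 libraries. Adra2c and the striatal sum are low in B-CTRL 1 and NB-CTRL 2, Adra1a and the hypothalamic sum are highest in NB-CTRL 2, and Adra1d and the pallial excitatory sum are highest in B-CTRL 1.

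The promoters of Adra2c (chr14:79697427-79697726, minus strand) and Adrb1 (chr1:265776853-265777152, plus strand) are shown because these genes, on different chromosomes, were high and low in much the same libraries. Adra2b was closer still to Adra2c (0.22 log2, against 0.27 log2 for Adrb1). Its promoter, which held 2 GC boxes, is not shown. Capitals mark the same letters as above.
Adra2c: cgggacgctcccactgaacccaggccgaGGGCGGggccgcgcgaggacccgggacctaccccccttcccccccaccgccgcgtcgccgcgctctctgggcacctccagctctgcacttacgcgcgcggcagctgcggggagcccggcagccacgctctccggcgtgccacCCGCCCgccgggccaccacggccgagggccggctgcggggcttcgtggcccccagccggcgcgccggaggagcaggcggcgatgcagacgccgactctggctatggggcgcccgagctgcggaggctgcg
Adrb1: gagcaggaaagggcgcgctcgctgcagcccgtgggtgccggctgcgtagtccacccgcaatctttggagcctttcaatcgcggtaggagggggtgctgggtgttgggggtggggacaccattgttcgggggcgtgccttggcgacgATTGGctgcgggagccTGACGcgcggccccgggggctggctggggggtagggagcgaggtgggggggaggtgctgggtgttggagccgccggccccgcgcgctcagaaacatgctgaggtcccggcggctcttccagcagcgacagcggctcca
The Adra2c promoter held 2 GC boxes, and its GC content of 79.0% stood at the 98.9th percentile of all promoters. The Adrb1 promoter held no GC box, 1 CCAAT box, found in 37.5% of all promoters, and 1 match to TGACG, found in 21.2%. No member's promoter held the whole element TGACGTCA, which 1.83% of promoters hold, or a TATA box, which 14.2% hold. Such matches describe letters in these windows and do not show that a factor binds there.

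The features whose profiles over the 6 libraries were most like each receptor's were named by a fixed rule, the root mean square difference between profiles centred on their means, among tested features whose mean reached 1 FPKM and whose locus entry no other feature shared (10204 candidates, or 10205 for Adra2b). For Adra2c these were Dclk3 (0.084 log2) and Slc35d3 (0.088), against a median of 0.56 over all candidates. Adrb1 was closest to St8sia5 (0.075 log2) and to Cx3cl1 (0.087), the gene of the chemokine fractalkine, with a median of 0.51. For Adra1a the nearest were Cacna1g (0.14 log2), a T-type calcium channel gene, and Plxnc1 (0.17), with a median of 0.76. Cacna1g stood at 8.84, 4.23 and 6.13 FPKM in B-CTRL 1, 2 and 3 and at 11.0, 21.4 and 10.1 FPKM in NB-CTRL 1, 2 and 3, so it too was highest in NB-CTRL 2. Adra1b was nearest to Grip2 (0.074 log2), which encodes a scaffold of AMPA receptors, and Hcn4 (0.080), a hyperpolarization-activated channel gene, with a median of 0.53. Adra2a was nearest to Pdzd3 (0.076 log2) and Ypel4 (0.082), and Adra2b to Spry2 (0.12) and Sox17 (0.13), an endothelial transcription factor gene. For Adra1d the nearest were Cox8b (0.39 log2) and Kcne2 (0.44), a potassium channel subunit gene known from choroid plexus, with a median of 1.28. Both stood high in B-CTRL 1 (14.9 and 13.4 FPKM) and at no more than 1.90 FPKM elsewhere, whereas Adra1d had its next value, 2.49 FPKM, in B-CTRL 3.

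The supply of noradrenaline was described by 10 genes for its synthesis, transport and breakdown. Dbh, the enzyme that makes noradrenaline from dopamine, stood at no more than 0.153 FPKM and the noradrenaline transporter gene Slc6a2 at no more than 0.0204 FPKM in any library. The 4 markers of noradrenergic cell bodies together summed to between 0.0557 and 0.210 FPKM. Of the 10 genes 6 were tested, 4 higher and 2 lower by mean in B-CTRL, and 0 passed (median log2 difference 0.14). Th, the tyrosine hydroxylase gene, stood at 0.646, 1.64 and 0.619 FPKM in B-CTRL 1, 2 and 3 and at 2.04, 1.38 and 1.40 FPKM in NB-CTRL 1, 2 and 3 (log2 difference -0.58 ± 0.31 SE). Maob, the gene of a breakdown enzyme, had a log2 difference of 0.23 ± 0.18 (SE).

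Genes of the signalling arms below the receptors mostly had lower means in B-CTRL. Over all 6 lists, which held 66 features, 51 of 61 tested features were lower and 10 higher, with a median log2 difference of -0.35 against -0.0024 over all tested features, and 0 of 61 passed the adjusted threshold. Without B-CTRL 2 the count was 43 of 61 lower with a median of -0.13 (0.0020 over all tested features). With each library's trend with locus length removed it was 42 of 61 with a median of -0.22 (0.032 over all). Under quantile normalization it was 50 of 61 with a median of -0.32 (0.032 over all). These settings were chosen for these lists after seeing the data.

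In the Gq arm, which serves alpha-1 receptors, 11 of 12 tested genes were lower by mean, with a median of -0.38 (-0.10 without B-CTRL 2). Plcb4, a phospholipase C gene, stood at 9.63, 9.58 and 10.4 FPKM in B-CTRL 1, 2 and 3 and at 11.9, 20.3 and 11.6 FPKM in NB-CTRL 1, 2 and 3, a log2 difference of -0.50 ± 0.23 (SE). The groups did not overlap, and NB-CTRL 2 was highest, as for Adra1a and Adra1b. Plcb3, another phospholipase C gene, had a log2 difference of -0.36 ± 0.20 (SE). The Gq subunit gene Gnaq stood at 44.3, 15.8 and 41.4 FPKM in B-CTRL 1, 2 and 3 and between 47.1 and 48.6 FPKM in NB-CTRL, with a log2 difference of -0.63 ± 0.37 (SE) and B-CTRL 2 far below the rest.

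In the Gi arm, which serves alpha-2 receptors, 9 of 11 were lower, with a median of -0.35 (-0.025 without B-CTRL 2). The 3 with the lowest p were Gnaz (-0.50 ± 0.21 log2 ± SE) and Gnao1 (-0.34 ± 0.25), which encode alpha subunits of the Gi/o family, and the channel gene Hcn2 (-0.40 ± 0.18). In the Gs arm, which serves beta receptors, 22 of 24 features were lower, with a median of -0.40 (-0.12 without B-CTRL 2). Its leading genes were Adcy6, an adenylyl cyclase gene (-0.71 ± 0.20), Prkar2a, a regulatory subunit of protein kinase A (-0.76 ± 0.24), and Pde4a, a phosphodiesterase that breaks down cyclic AMP (-0.70 ± 0.23). Adcy6 stood at 7.79, 5.28 and 5.75 FPKM in B-CTRL 1, 2 and 3 and at 9.69, 12.4 and 9.42 FPKM in NB-CTRL 1, 2 and 3, without overlap. Of the receptor kinases and arrestins, which switch active receptors off, 6 of 7 were lower (median -0.40, and -0.22 without B-CTRL 2). These had Grk5 (-0.54 ± 0.21), Grk6 (-0.40 ± 0.19) and Arrb1 (-0.92 ± 0.46) as the 3 of lowest p. Groups did not overlap in 10 of the 61 tested features, beside 23.7% of all tested features in either direction. An unadjusted limma p under 0.05 was reached by 5 of the 61, beside 12.3% of all tested features.

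**Figure D5:**
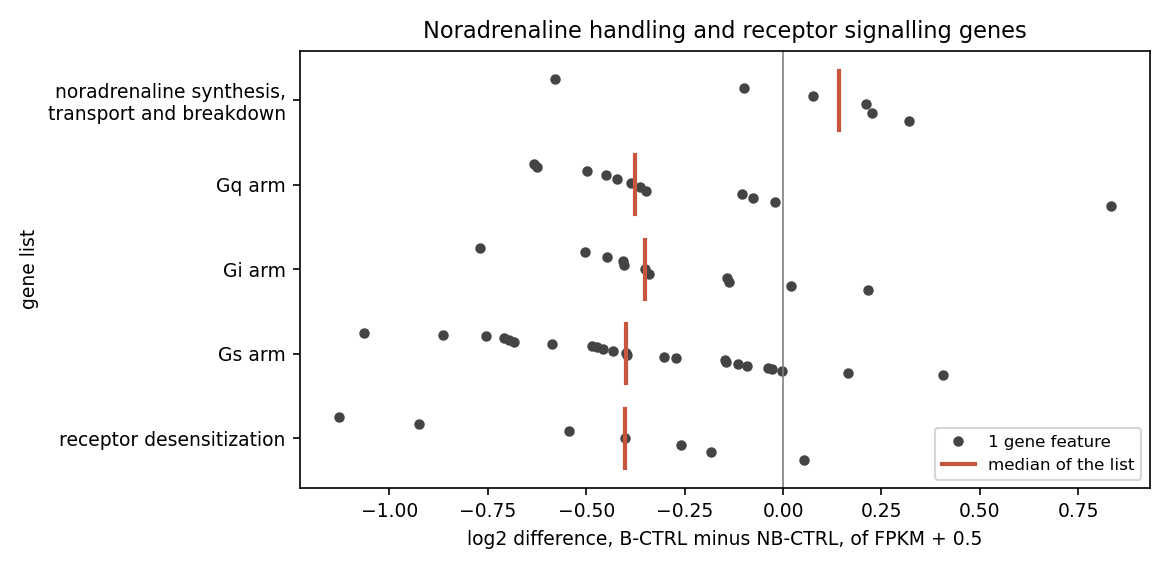
Log2 difference of FPKM + 0.5, B-CTRL minus NB-CTRL, of each tested feature (points, spread vertically to be visible) in 5 gene lists, with the median of each list as a red bar. The medians of the Gq, Gi and Gs arms and of the desensitization genes lie between -0.40 and -0.35, and that of the noradrenaline supply genes at 0.14.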

How the data were processed

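The values are FPKM made by the authors, 1 column per library, per the file headers. Cuffdiff 2.2.1, STAR 2.5.4b and build rn6 are named, without settings, per the submitters' processing notes. Annotation release and library normalization are not stated in those notes. Values were used as deposited. From them log2(FPKM + 0.5) was computed, which understates the change of low genes, and testing was limited to the 14043 of 32662 features whose mean reached 0.5 FPKM. The comparison of groups used limma 3.58.1 (R 4.3.3), with an intensity trend, no covariates, 2-sided, and Benjamini-Hochberg adjustment over all tested features. An exact test of 3 libraries against 3 cannot go below 0.1 and is not given. The receptors and lists were chosen with earlier results of these data known. Of 66 list symbols 63 matched by symbol, 2 through a RefSeq synonym (GRCr8, names only) and 1 did not match. The text names the 7 receptors, the 3 genes of lowest p of each list and the 2 features most like each receptor. Genes named beyond that, such as markers, Dbh, Slc6a2 and Adrb3, were picked after their values were seen. Some genes that the rule names are not reported here.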

Additional observations from a re-analysis of the deposited data

How the results depend on the processing

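The count of receptors called was 0 in each of 19 other fits: a pseudocount of 0.1 or 1, quantile normalization, median scaling, all features kept, a minimum mean of 1 FPKM, removal of the trend with locus length, no intensity trend, robust moderation, library weights, the replicate block, each library left out, and, added after seeing the data, the striatal marker score as a covariate and B-CTRL 1 and NB-CTRL 2 both left out. The count of features called was 0 in these fits too, except 1 without NB-CTRL 3 and 1 with B-CTRL 1 and NB-CTRL 2 left out (leave-one-out range 0 to 1). Same-numbered libraries deviated from their group means with correlations of -0.22, 0.072 and 0.15, so the numbers were not taken as pairs. With the replicate number as a block 0 features passed. Each number occurs once in each group, so this block cannot change the differences (-1.12 for Adra1a, -0.81 for Adra1b), only their SE. The SE was 0.43 in place of 0.37 for Adra1a and 0.25 in place of 0.23 for Adra1b. The signs of Adra1a (adjusted limma p from 0.193 to 0.689), Adra1b (0.135 to 0.689), Adra1d and Adra2a held in all 19. The settings of the filter, the intensity trend, the robust moderation and the replicate block leave each difference as it is. A sign could not turn in those fits. Adra2b turned with median scaling (0.074) and quantile normalization (0.12), and could not be fitted with the minimum of 1 FPKM. Adra2c turned with library weights (-0.22) and with the striatal covariate (-0.14).

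Leaving out each library gave -1.38 to -0.80 for Adra1a, -0.92 to -0.61 for Adra1b, 0.32 to 2.13 for Adra1d, -0.49 to -0.20 for Adra2a, -0.31 to 0.21 for Adra2b, -0.16 to 0.54 for Adra2c and -0.55 to 0.13 for Adrb1. For neighbours in the order of levels it gave 2.02 to 2.19 (Adra2c over Adrb1), -0.037 to 0.33 (Adrb1 over Adra2a), 1.60 to 2.35 (Adra2a over Adra1d), -0.65 to 0.15 (Adra1d over Adra1a), -0.10 to 0.11 (Adra1a over Adra1b) and 0.58 to 0.98 (Adra1b over Adra2b). Adra1d lay above Adra1a in the B-CTRL libraries alone (1.09), and Adra1a above Adra1b in the NB-CTRL libraries alone (0.13). The cause of these turns was not tested. Absolute depth is unknown, so values near 1 FPKM carry no counting interval.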
